A study of Mus musculus with 26 samples.

Results

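This account covers 58 genes that work in mitosis, from the cyclin-dependent kinase that starts it to the proteins that build the spindle, condense and separate the chromosomes and divide the cell. They were listed by name and function and make up 58 of the 45318 genes in the count tables. The rule used no measured value, though earlier results of these data were known when the genes were chosen. Polyadenylated RNA was sequenced from 4T1 cells, a mouse mammary tumor line of BALB/c origin, in 9 libraries. The knockout (KO) libraries, genotype MaTAR25-/-, come as KO1 with 3 libraries and KO2 with 4 libraries, each group 1 single-cell clone in which CRISPR/Cas9 with a pair of guide RNAs deleted sequence over the transcription start site of MaTAR25, a long noncoding RNA. The control group has 2 libraries of 4T1 cells labelled wild type, which by the methods of the study received a guide RNA against Renilla luciferase as negative control, and the labels do not say whether they are 1 control clone or 2. The labels give the same growth medium for all groups and name no drug or other treatment. Nothing says that libraries of a clone came from separate cultures, so the p-values below measure the spread between libraries, which may be technical.

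Mitosis starts when the kinase Cdk1, bound to B-type cyclins, becomes active. Chromosomes then condense, microtubules attach to kinetochores, and the spindle checkpoint holds back the anaphase-promoting complex (APC/C) until every chromosome is attached. Cdc20 then turns the APC/C on, securin and cyclin B are destroyed, separase cuts cohesin, and the cell divides in the middle. The mRNAs of most of these genes are low in G1 and high in G2 and mitosis. In G1 the DREAM complex represses them, bound through its MuvB core to a promoter element called the CHR, and later B-Myb with MuvB and Foxm1 activate them, often together with NF-Y at CCAAT boxes.

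The promoters of 6 members are shown because they hold these elements near the start, 3 from members whose mRNA was higher in KO cells (Cdk1, Mki67 and Top2a) and 3 from members that did not pass the test (Cdc20, Ube2c and Ckap5). Each run is the 150 bases before the RefSeq transcription start on the gene's own strand, 5′ to 3′, from GRCm38.p6. Capitals mark TTTGAA, the core letters of a CHR, and CCAAT, each on either strand (TTCAAA and ATTGG on the other). The letters of both motifs can share at most 1 base.
Cdk1 (chr10:69352913-69353062, minus strand): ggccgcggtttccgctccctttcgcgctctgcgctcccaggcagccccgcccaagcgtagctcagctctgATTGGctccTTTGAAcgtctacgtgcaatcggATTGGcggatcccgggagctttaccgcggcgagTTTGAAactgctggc
Mki67 (chr7:135716380-135716529, minus strand): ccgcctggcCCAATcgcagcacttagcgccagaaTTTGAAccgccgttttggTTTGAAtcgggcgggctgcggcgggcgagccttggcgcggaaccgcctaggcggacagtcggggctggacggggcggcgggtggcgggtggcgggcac
Top2a (chr11:99024190-99024339, minus strand): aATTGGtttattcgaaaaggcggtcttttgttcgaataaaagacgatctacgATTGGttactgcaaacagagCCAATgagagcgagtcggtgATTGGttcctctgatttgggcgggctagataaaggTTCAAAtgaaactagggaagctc
Cdc20 (chr4:118437344-118437493, minus strand): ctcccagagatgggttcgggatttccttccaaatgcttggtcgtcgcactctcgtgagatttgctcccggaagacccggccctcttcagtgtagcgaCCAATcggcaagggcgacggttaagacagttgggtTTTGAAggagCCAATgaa
Ube2c (chr2:164769779-164769928, plus strand): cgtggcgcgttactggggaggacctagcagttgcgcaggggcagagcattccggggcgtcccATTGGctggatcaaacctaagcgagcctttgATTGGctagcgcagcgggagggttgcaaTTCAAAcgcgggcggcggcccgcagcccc
Ckap5 (chr2:91526612-91526761, plus strand): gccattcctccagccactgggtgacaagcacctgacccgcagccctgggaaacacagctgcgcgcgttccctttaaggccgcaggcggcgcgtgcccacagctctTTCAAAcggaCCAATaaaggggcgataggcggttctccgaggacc
In other members the TTTGAA lay past the start, as in these 22-base windows around it.
Plk1 (chr7:122159457-122159478, plus strand, 23 to 44 bases past the start): gcgccgcgTTTGAAttcgggga
Aurka (chr2:172370525-172370546, minus strand, 25 to 46 bases past the start): ggagaaccTTTGAAttgtaacg
Bub1b (chr2:118598239-118598260, plus strand, 29 to 50 bases past the start): agagacgttaaaTTTGAAactt
Cenpf (chr1:189688071-189688092, minus strand, across the start): gcgggcagTTTGAAtcgctcgt

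RefSeq promoters, which run from 250 bases before to 50 bases after the start, were given for 48 of the 58 members. Aurkb, Ccna2, Cdc25c, Dlgap5, Foxm1, Incenp, Kif20a, Smc4, Spc24 and Tpx2 had no entry in the table used here. TTTGAA was in the promoters of 35 of the 48 members (72.9%), against 14.1% of the 10504 genes that were tested in the RNA-seq data and have an entry, and 20.2% of all 27025 genes in the table. CCAAT was in 36 of the 48 members (75.0%), against 42.7% of tested genes and 41.1% of all. Both motifs were in 30 of the 48 (62.5%), against 6.97% of tested genes. TTTGAA sat in the last 50 bases before the start in 27.1% of members and in the first 50 bases after it in 37.5%, where 2.08% and 1.78% of tested genes held it. CCAAT lay further upstream, in the last 50 bases in 54.2% of members and in the 50 bases before those in 41.7%, against 13.3% and 17.8% of tested genes. Of the 23 members with an entry that were called higher in KO cells by the test described further on, 17 held TTTGAA and 15 CCAAT, and of the 25 that were not called 18 and 21 held them. These shares describe letters in a window, and no binding was measured.

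**Figure D1:**
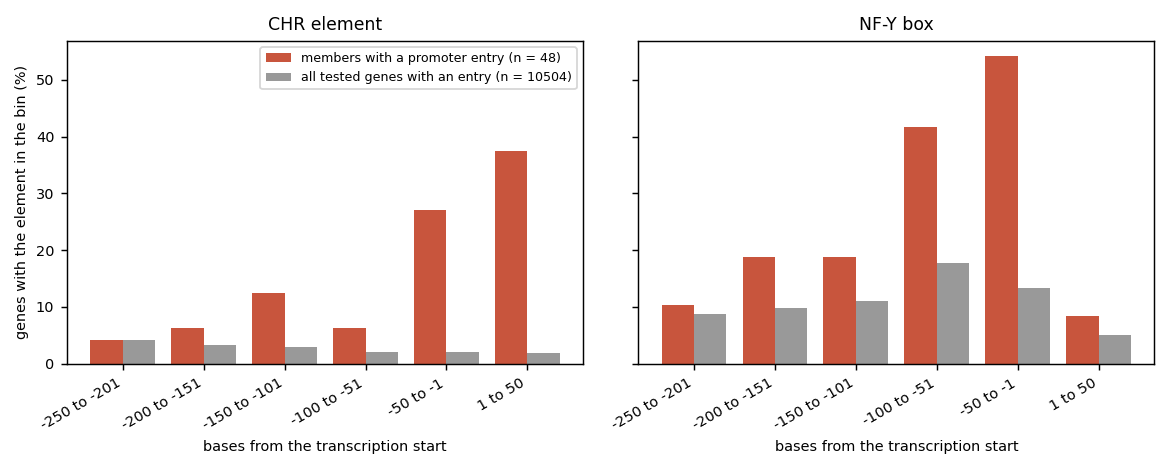
Share of genes (%) with TTTGAA (left, CHR element) or CCAAT (right, NF-Y box) on either strand in each 50-base bin from 250 bases before to 50 bases after the transcription start, for 48 members (red) and the 10504 tested genes with a promoter entry (grey). The members' TTTGAA bars stand at 27.1% and 37.5% in the bins on either side of the start, and their CCAAT bars are highest, at 54.2%, in the bin just before it.

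The libraries held 25367211 to 61110585 gene counts each, and 15023 genes passed the filter on low counts, all 58 members among them. MaTAR25 itself (annotated as 1200007C13Rik) was at 0.768 and 0.915 CPM (read counts scaled to a common library size by the TMM method) in the control libraries and at 0 to 0.307 CPM in the KO libraries, every one of them below both controls (log2 fold change -2.63, standard error 0.82, adjusted p = 0.0561 by edgeR's quasi-likelihood test). Epithelial markers were present, with Krt8, Krt18, Epcam and Cdh1 at 103.6 CPM or more in every library, and Krt5 was at 0 in all of them. Summed over 8 epithelial markers, the level was 3725 and 3910 CPM in control, 5063 to 7338 in KO1 and 2197 to 4541 in KO2. Of the 7 that passed the filter, 0 were called higher and 1 lower in KO cells at an adjusted p under 0.1. In KO1 2 were called higher, and 3 were called lower in KO2 than in KO1. The 8 fibroblast markers summed to 20.3 and 25.9 CPM in control and 11.8 to 47.6 in KO libraries, nearly all of it Pdgfra, with Col3a1, Dcn, Lum and Thy1 at 0 throughout. The 8 leukocyte markers summed to 8.15 and 9.68 CPM in control and 4.96 to 29.4 in KO libraries, and the 5 endothelial markers to at most 1.77 CPM. Ptprc was at 0.904 CPM or less and Adgre1 at 0, so other markers carried most of the highest leukocyte sums. The 3 leukocyte markers that passed the filter had log2 fold changes of -0.87 to 2.96 in KO cells. None was called in KO cells, and 1 was called higher in KO1. KO2 replicate 3 had the highest share of mitochondrial counts, 1.72% against 0.98 to 1.23% in the other libraries. Reads not assigned to a gene were 33.9% and 34.3% of the total in control and 34.8 to 37.0% in the KO libraries. They include the reads without a unique position, which were 24.1% in both controls and 25.2 to 27.5% in the KO libraries. Both shares, which overlap, were higher in every KO library than in either control, as the members were on the whole. The part of these shares in the results was not tested.

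As a group, the mitosis genes were higher in KO cells. Of the 58 members, 30 were called higher in the 7 KO libraries than in the 2 control libraries at an adjusted p under 0.1 (edgeR quasi-likelihood test, adjusted over all 15023 genes), and 0 were called lower. Of all genes tested, 11.9% were called higher and 10.7% lower. At an unadjusted p under 0.05, 38 members were higher and 0 lower, a level for which no share of all genes is given here. DESeq2 called 33 members higher and 0 lower, where it called 14.5% of all genes higher and 11.3% lower. The median log2 fold change of the members was 0.66, against 0.06 for all genes tested, with members from -0.37 (Smc4) to 1.49 (Kif20a) and 54 of 58 above 0. Every KO library was above both control libraries for 39 members, and for none was every KO library below both, where 16.9% and 17.6% of all genes tested were so. Members took 0.784% and 0.834% of the gene counts in the control libraries and 1.05 to 1.26% in the KO libraries. In bulk RNA, a larger share of cells in G2 or mitosis and more of these mRNAs per cell cannot be told apart.

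The calls rested on having both control libraries. Without control replicate 1, and likewise without control replicate 2, 2 of the 58 members were called, Kif20a and Mki67 both times, while the median log2 fold change of the members was 0.65 and 0.75. In those fits with a lone control, which is assumed to vary like the KO libraries, 1.26% and 1.57% of all genes were called higher. Leaving out a KO library left 28 to 35 members called.

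The KO libraries were not alike in how far the members moved. Relative to the control mean, the median member stood at 0.54, 0.66 and 0.78 on the log2 scale of CPM + 1 in KO1 replicates 1 to 3 and at 0.75, 0.46, 0.35 and 0.55 in KO2 replicates 1 to 4. KO2 replicate 1 was the highest of the 7 KO libraries for 19 members and had 57 of the 58 above both controls. KO2 replicate 3, the library with the most mitochondrial counts, was the lowest KO library for 17 members, and KO2 replicate 2 for 16. Without KO2 replicate 3, 35 members were called.

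**Figure D2:**
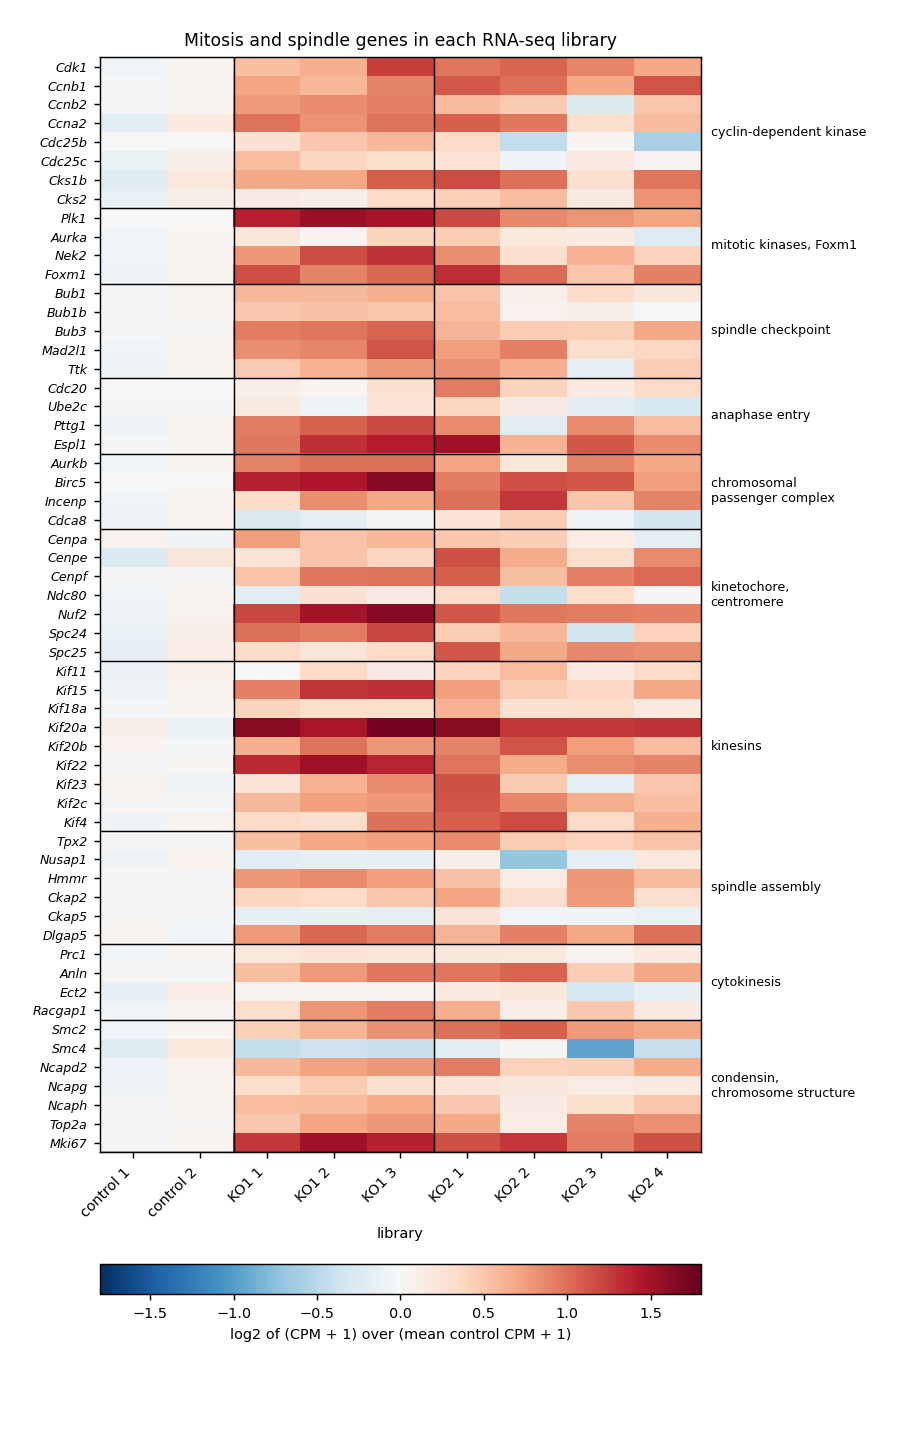
Log2 of (CPM + 1) over (mean control CPM + 1) for the 58 members (rows, grouped by function) in the 9 libraries (columns), red above and blue below the control mean. The rows of Kif20a, Mki67, Plk1, Birc5 and Nuf2 are red in every KO library, while Cdca8, Ndc80, Nusap1, Ckap5 and Ect2 hold both red and blue KO cells and Smc4 is blue in 6 of the 7 KO columns.

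Levels differed widely between members. Per kilobase of annotated exon, the mean level in control cells was highest for Smc4 at 92.0 CPM per kb, Top2a at 78.9, Cdc20 at 78.4 and Cks1b at 74.5, and lowest for Kif18a at 3.02, Kif15 at 5.46 and Nuf2 at 5.53. In KO cells Cks1b stood at 136 CPM per kb and Top2a at 125, above Smc4 at 71.3. Exon lengths cover all annotated transcripts of a gene, so these levels are approximate.

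Of the 8 genes around Cdk1, the kinase that drives entry into mitosis, 4 rose, and the class had a median log2 fold change of 0.71. In the counts by class, here and below, rose means called higher at an adjusted p under 0.1. A gene that did not pass can still have a log2 fold change above 0. Cdk1 was at 194 and 208 CPM in control, 292, 313 and 478 in KO1 and 393, 418, 372 and 324 in KO2. All KO libraries lay above both controls, a log2 fold change of 0.88 ± 0.20 SE (adjusted p = 0.0174 by edgeR, exact two-sided permutation p = 0.0278, the smallest that 36 assignments of 2 and 7 libraries can give). Ccnb1, which encodes cyclin B1, the main partner of Cdk1 in mitosis, went from 61.1 and 64.8 CPM in control to 104, 95.7 and 118 in KO1 and 137, 126, 102 and 139 in KO2, without overlap (log2 fold change 0.90 ± 0.19 SE, adjusted p = 0.0121). The cyclin A2 gene Ccna2, whose product acts in S phase and early mitosis, and Cks1b, a small Cdk-binding subunit, rose by 0.83 and 0.87 (adjusted p = 0.0301 and 0.0372). Ccnb2, Cks2 and Cdc25c did not pass, at 0.59, 0.39 and 0.26 on the log2 scale (adjusted p = 0.164, 0.246 and 0.391). Cdc25b, a phosphatase that activates Cdk1, did not pass either, at 101 and 101 CPM in control, 122, 142 and 153 in KO1 and 129, 74.3, 104 and 66.7 in KO2 (log2 fold change 0.16 ± 0.30 SE, adjusted p = 0.750). Its 3 KO1 libraries were above both controls and 2 of the 4 KO2 libraries below both. Processed copies named Ccnb1-ps and Ccnb2-ps share sequence with the cyclin B genes, and Ccna2 exons overlap Exosc9 on the other strand, so these counts are less certain.

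Among the mitotic kinases and Foxm1, 3 of 4 rose, with a median of 0.91. Plk1, the kinase that acts from centrosome maturation to cytokinesis, was at 83.5 and 83.8 CPM in control, 222, 247 and 236 in KO1 and 192, 153, 146 and 138 in KO2. The KO libraries all lay well above both controls, and the 3 KO1 libraries lay above the 4 KO2 libraries (log2 fold change 1.19 ± 0.26 SE, adjusted p = 0.0155, 2.28-fold). Foxm1, the transcription factor that activates many genes of G2 and mitosis, rose from 117 and 126 CPM in control to 272, 227 and 250.4 in KO1 and 308, 248, 172 and 228 in KO2 (log2 fold change 1.00 ± 0.21 SE, adjusted p = 0.0119). Nek2, a kinase that separates centrosomes, rose by 0.82 (adjusted p = 0.0683). Aurka, the Aurora kinase of centrosomes and spindle poles, did not pass: it was at 91.9 and 97.5 CPM in control, 109, 97.4 and 126 in KO1 and 129, 108, 106 and 80.7 in KO2, with overlap (log2 fold change 0.19 ± 0.18 SE, adjusted p = 0.515). The log2 ratio of Plk1 to Aurka was -0.14 and -0.22 in the control libraries and 0.46 to 1.34 in the KO libraries, a pair chosen after its values were seen.

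Of 5 spindle checkpoint genes, 2 rose (median 0.56). Mad2l1, which encodes the Mad2 protein that binds Cdc20 at unattached kinetochores, was at 69.2 and 74.3 CPM in control, 129, 133 and 159 in KO1 and 122, 135, 89.3 and 92.8 in KO2 (log2 fold change 0.78 ± 0.23 SE, adjusted p = 0.0454). Bub3, a scaffold of the checkpoint complex, also rose (log2 fold change 0.75 ± 0.20 SE, adjusted p = 0.0300). Bub1b, the gene of BubR1, had 145 and 153 CPM in control and 208, 214 and 211 in KO1, while KO2 was at 220.0, 156, 159.9 and 149. The other 3 KO2 libraries lay close to the controls, and KO2 replicate 1 was above every KO1 library (log2 fold change 0.34 ± 0.19 SE over all KO libraries, adjusted p = 0.255). Bub1 and Ttk, the kinases of the checkpoint, were at 0.44 and 0.56 and did not pass (adjusted p = 0.129 and 0.140).

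At the step into anaphase, 1 of 4 genes rose (median 0.59). Espl1, the gene of separase, the protease that cuts cohesin, was at 56.5 and 59.5 CPM in control, 113, 146 and 156 in KO1 and 169, 89.7, 127 and 106 in KO2 (log2 fold change 1.16 ± 0.25 SE, adjusted p = 0.0140, 2.23-fold). Pttg1, which encodes securin, the inhibitor of separase, had a log2 fold change of 0.82 that just missed the threshold (adjusted p = 0.106). KO2 replicate 2, at 31.8 CPM, was its only KO library below both controls. Cdc20, the activator of the APC/C, was at 148 and 145 CPM in control, 158, 149.9 and 178 in KO1 and 281, 194, 165 and 186 in KO2. All KO libraries were above both controls, some by a few CPM, and KO2 replicate 1 stood far above the rest (log2 fold change 0.36 ± 0.23 SE, adjusted p = 0.311). Ube2c, the ubiquitin-conjugating enzyme of the APC/C, was at 145 and 149 CPM in control, 165, 139 and 175 in KO1 and 193, 162, 128 and 119.8 in KO2 (log2 fold change 0.07 ± 0.19 SE, adjusted p = 0.83), and its KO libraries fell on both sides of the controls. Exons of Cdc20 and Ube2c overlap Elovl1 and Tnnc2 on the other strand.

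Within the chromosomal passenger complex, which corrects wrong attachments and then guides cytokinesis, 3 of the 4 subunits rose and the other did not (median 0.81). Birc5, the gene of survivin, was at 74.2 and 74.5 CPM in control, 196, 206 and 236 in KO1 and 142, 168, 162 and 124 in KO2 (log2 fold change 1.25 ± 0.24 SE, adjusted p = 0.0100, 2.37-fold). Aurkb, the kinase of the complex, was at 73.5 and 79.2 CPM in control, 143, 153 and 153 in KO1 and 126, 88.7, 142 and 123 in KO2 (log2 fold change 0.80 ± 0.21 SE, adjusted p = 0.0306). Incenp, the scaffold, rose by 0.82 (adjusted p = 0.0422). Cdca8, the gene of borealin, was at 123 and 134 CPM in control, 107, 115 and 126 in KO1 and 151, 174, 120.1 and 102 in KO2 (log2 fold change 0.00 ± 0.21 SE, adjusted p = 0.990), with KO libraries on both sides of the controls. Its sign depended on the libraries used. The log2 ratio of Birc5 to Cdca8 was -0.73 and -0.84 in the control libraries and -0.09 to 0.90 in the KO libraries.

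Of 7 kinetochore and centromere genes, 2 rose (median 0.69). The NDC80 complex, a rod of 4 subunits that holds microtubules, was unequal. Nuf2 was at 33.5 and 36.7 CPM in control, 81.9, 101 and 113 in KO1 and 77.5, 68.7, 67.6 and 66.7 in KO2 (log2 fold change 1.23 ± 0.24 SE, adjusted p = 0.0100, 2.35-fold). Its partner Ndc80 was at 61.9 and 66.9 CPM in control, 56.3, 78.2 and 71.6 in KO1 and 82.3, 47.5, 80.4 and 65.1 in KO2, overlapping the controls (log2 fold change 0.09 ± 0.21 SE, adjusted p = 0.802). The log2 ratio of Nuf2 to Ndc80 was -0.89 and -0.87 in control and -0.25 to 0.65 in the KO libraries. Spc24 and Spc25, the other pair of the rod, were at 0.69 and 0.69 over all KO libraries and did not pass (adjusted p = 0.201 and 0.106). Cenpf, a large kinetochore protein of G2 and mitosis, rose by 0.87 (adjusted p = 0.0136). Cenpe, the kinetochore motor that brings chromosomes to the spindle equator, was at 135 and 189 CPM in control, 191, 233 and 212 in KO1 and 363, 259.8, 202 and 293 in KO2. Control replicate 2 nearly reached the lowest KO libraries, and the test was not passed (log2 fold change 0.62 ± 0.26 SE, adjusted p = 0.132, exact permutation p = 0.0556). Cenpa, the histone H3 variant that marks the centromere, was at 0.43 (adjusted p = 0.220).

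Kinesins gave the member with the largest change. Of the 9, 5 rose (median 0.78). Kif20a, a motor of the central spindle needed for cytokinesis, was at 74.4 and 63.8 CPM in control, 216, 194 and 229 in KO1 and 215, 168, 169 and 172 in KO2, so that its lowest KO library had more than the sum of both controls (log2 fold change 1.49 ± 0.18 SE, adjusted p = 0.00174, 2.82-fold). Its exons overlap Cdc23, an APC/C subunit gene, on the other strand. Kif22, a chromokinesin that pushes chromosome arms outward, rose by 1.13, Kif15, a spindle motor that can stand in for Kif11, by 0.88, Kif20b by 0.84, and Kif2c, a microtubule depolymerase at centromeres, by 0.78 (adjusted p = 0.0156, 0.0591, 0.0131 and 0.0181). Kif11, the motor that pushes the spindle poles apart, was at 181 and 207 CPM in control, 195, 249.7 and 214 in KO1 and 259.5, 287, 219 and 247 in KO2, with overlap (log2 fold change 0.30 ± 0.17 SE, adjusted p = 0.246). Kif4, Kif23 and Kif18a were at 0.75, 0.58 and 0.36 and did not pass (adjusted p = 0.101, 0.207 and 0.156). Copies named Kif22-ps and Kif4-ps make the counts of these kinesins less certain.

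Spindle assembly genes split, with 4 of 6 called higher (median 0.55). Dlgap5, which stabilizes microtubules near chromosomes, was at 52.8 and 48.8 CPM in control, 87.0, 105 and 97.9 in KO1 and 78.4, 95.9, 82.5 and 102 in KO2 (log2 fold change 0.87 ± 0.16 SE, adjusted p = 0.00810). Tpx2, the activator of Aurora A on the spindle, was at 156 and 151 CPM in control, 224, 248 and 257 in KO1 and 278, 210.3, 205 and 220.1 in KO2 (log2 fold change 0.61 ± 0.15 SE, adjusted p = 0.0247). Hmmr and Ckap2 rose by 0.64 and 0.49 (adjusted p = 0.0504 and 0.0823). Ckap5, a microtubule polymerase, was at 260.2 and 255 CPM in control, 233, 235 and 230.3 in KO1 and 303, 248, 244 and 238 in KO2 (log2 fold change -0.06 ± 0.14 SE, adjusted p = 0.809). All KO1 libraries and 3 of the 4 KO2 libraries were a little below both controls, and KO2 replicate 1 was above. Nusap1, which bundles spindle microtubules, was at -0.14 (adjusted p = 0.689), and its exons overlap Oip5 on the other strand.

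In cytokinesis, 1 of 4 genes rose (median 0.35). Anln, the gene of anillin, which ties the contractile ring to the membrane, was at 399.6 and 389.6 CPM in control, 575, 674 and 759.7 in KO1 and 769.7, 819, 535 and 631 in KO2 (log2 fold change 0.79 ± 0.18 SE, adjusted p = 0.0190). Prc1, which cross-links the microtubules of the central spindle, was at 199.9 and 214 CPM in control, 236, 243 and 240.1 in KO1 and 239, 235, 216 and 233 in KO2. All KO libraries were above both controls, but KO2 replicate 3 only by about 2 CPM, and the change was small (log2 fold change 0.18 ± 0.12 SE, adjusted p = 0.312, exact permutation p = 0.0278). Ect2, the exchange factor that turns on RhoA at the cell equator, was at 202 and 245 CPM in control, 233, 232 and 234 in KO1 and 252, 257, 179.6 and 202 in KO2 (log2 fold change 0.02 ± 0.16 SE, adjusted p = 0.939), and its sign also depended on the libraries used. Racgap1, which partners Kif23 in centralspindlin, was at 0.52 (adjusted p = 0.151).

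Of 7 genes of condensin and chromosome structure, 5 rose (median 0.66). Mki67, the gene of the proliferation marker Ki-67, which coats mitotic chromosomes, was at 403 and 423 CPM in control, 999, 1195 and 1079 in KO1 and 919, 999, 781 and 916 in KO2 (log2 fold change 1.25 ± 0.17 SE, adjusted p = 0.00246, 2.38-fold). Top2a, the topoisomerase that untangles sister chromatids, had the highest mean CPM of the members in each group, at 698 and 724 CPM in control, 994, 1167 and 1225 in KO1 and 1142, 777, 1321 and 1258 in KO2. In KO1 replicates 1 and 2 and KO2 replicate 2, Mki67 was above it. KO2 replicate 2 was close to the controls and the other 6 far above (log2 fold change 0.66 ± 0.19 SE, adjusted p = 0.0457). Condensin I itself was unequal: Smc2, Ncapd2 and Ncaph rose by 0.79, 0.66 and 0.48 (adjusted p = 0.0188, 0.0245 and 0.0770), and Ncapg was at 0.26 (adjusted p = 0.215) with all KO libraries above both controls. Smc4, the ATPase that pairs with Smc2, was at 412 and 547 CPM in control, 355, 368 and 362 in KO1 and 418, 488, 248 and 361 in KO2. Of its 7 KO libraries, 6 were below the control mean, and the test was not passed (log2 fold change -0.37 ± 0.22 SE, adjusted p = 0.272). The log2 ratio of Smc2 to Smc4 was -1.56 and -1.87 in control and -0.86 to 0.00 in the KO libraries. The pairs whose ratios are given here were chosen after the values were seen, and the ratios carry no test.

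**Figure D3:**
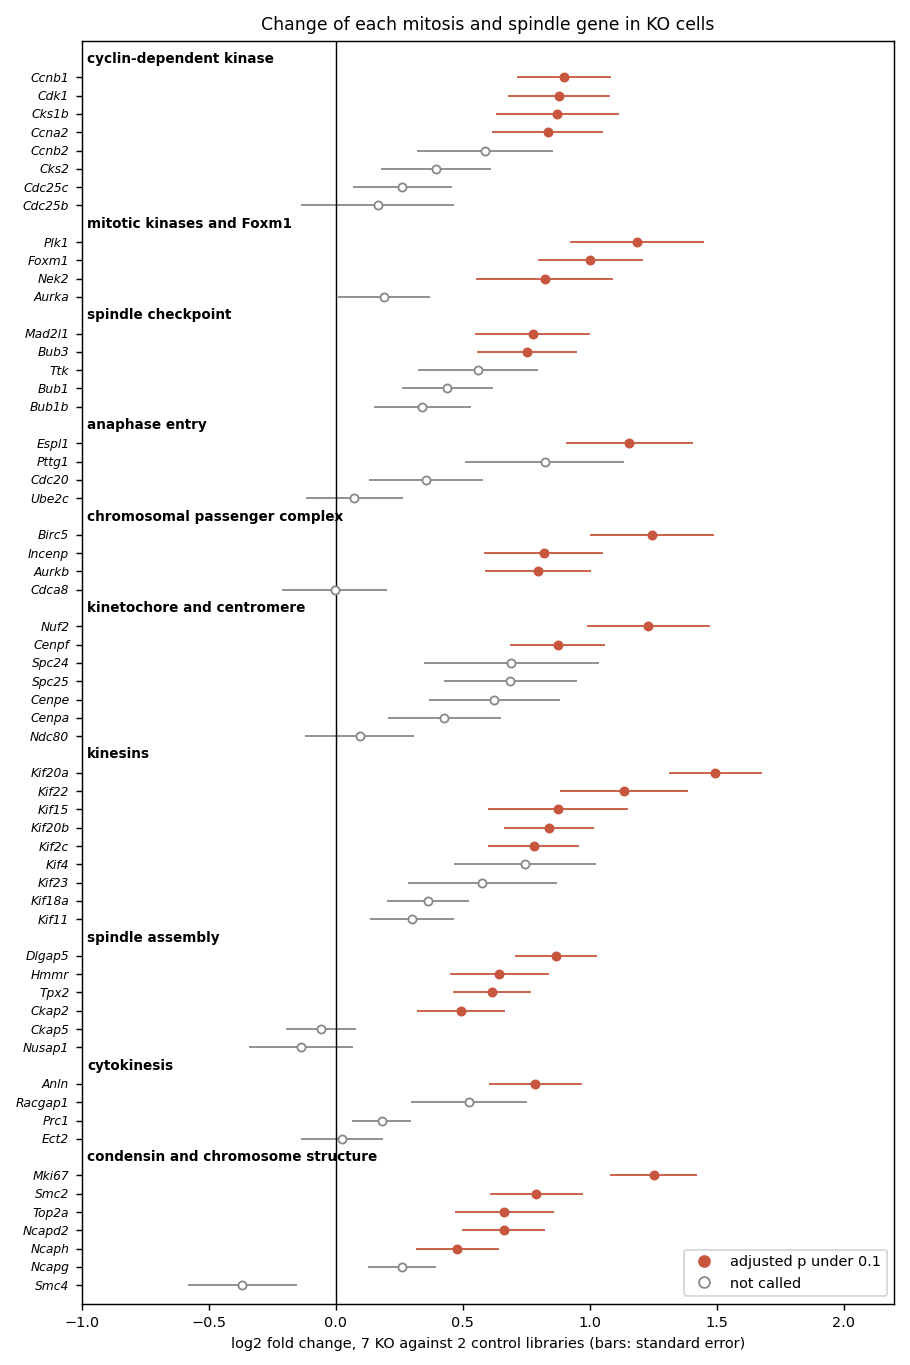
Log2 fold change of 7 KO against 2 control libraries for each of the 58 members by function, with bars for the standard error, filled red where the adjusted p was under 0.1. The largest values are Kif20a at 1.49, Mki67 and Birc5 at 1.25 and Nuf2 at 1.23, and Smc4 at -0.37 is the lowest.

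**Figure D4:**
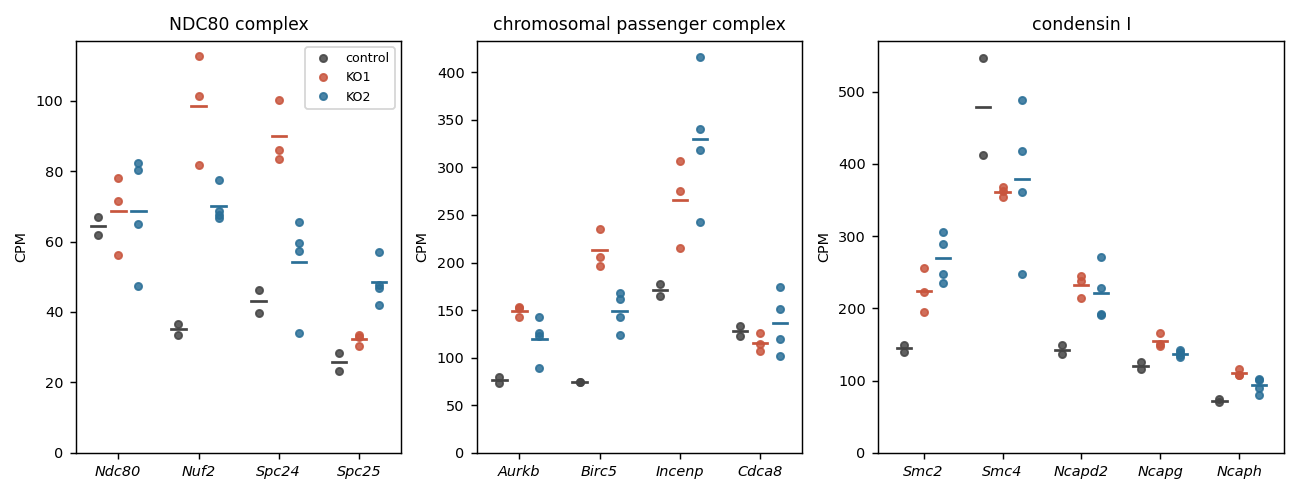
CPM of the subunits of the NDC80 complex, the chromosomal passenger complex and condensin I in each library (points) with group means (bars), control in dark grey, KO1 in red and KO2 in blue. Nuf2, Birc5 and Smc2 stand above their controls in all 7 KO libraries, whereas Ndc80 and Cdca8 overlap them.

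Each clone was also compared with the controls in a fit with 3 groups. In KO1, 37 members were called higher and 0 lower (edgeR), where 15.9% of all genes were called higher and 15.7% lower. In KO2, 34 were called higher and 0 lower, against 16.5% and 15.0% of all genes. At an unadjusted p under 0.05 the counts were 40 and 36 higher and 0 lower, again without a share of all genes. With DESeq2 they were 39 and 34 higher and 0 lower, where 15.9% and 16.2% of all genes were called higher. The shares of all genes that DESeq2 called lower were 15.2% in KO1 and 13.9% in KO2. Both clones share the same 2 control libraries. Of the members, 29 were called in both clones, 8 in KO1 (Ccnb2, Bub1, Bub1b, Pttg1, Cenpa, Spc24, Racgap1 and Ncapg) but not in KO2, 5 in KO2 (Cks2, Cenpe, Spc25, Kif4 and Ckap2) but not in KO1, and 16 in neither. The same split was not counted over all genes tested, so it is not read as particular to the members. By the median member, the log2 change from control was 0.67 for KO1 and 0.57 for KO2. With either control left out, fewer members and also fewer of all genes tested were called in each clone. With KO1 and control libraries alone in the fit, 44 members were called higher and 1 lower, Smc4, where 27.4% of all genes were called higher and 26.6% lower.

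The difference between the clones was tested itself. Between KO2 and KO1, 8 members were lower in KO2 and 1 higher, where 9.43% of all genes were called lower and 10.2% higher. Calls between the clones were thus no more frequent among the members than among all genes tested. Lower in KO2 were Plk1 (-0.58 ± 0.14 SE, adjusted p = 0.0271), Birc5 (-0.51 ± 0.14 SE, 0.0428), Nuf2 (-0.49 ± 0.14 SE, 0.0540) and 5 others. Kif22 was at 47.1 and 49.5 CPM in control, 124, 141 and 126 in KO1 and 94.8, 77.1, 87.4 and 90.4 in KO2, so that the clones did not overlap and both lay above control (difference -0.58 ± 0.12 SE, adjusted p = 0.0203). Kif15 was at 57.7 and 62.6 CPM in control, 114, 149 and 151 in KO1 and 101, 82.8, 78.0 and 97.6 in KO2, in the same order (difference -0.62 ± 0.15 SE, adjusted p = 0.0319). Bub3 was at 122 and 124 CPM in control, 234, 240.1 and 256 in KO1 and 188, 170.1, 166 and 197 in KO2 (difference -0.43 ± 0.11 SE, adjusted p = 0.0397). Nek2, at 71.6 and 76.5 CPM in control, had 128, 168 and 183 in KO1 and 133, 90.8, 115 and 99.4 in KO2, where KO2 replicate 1 overlapped KO1 (difference -0.55 ± 0.17 SE, adjusted p = 0.0694). Spc24 and Spc25, which form a dimer in the NDC80 complex, differed between the clones in opposite directions. Spc24 was at 39.7 and 46.4 CPM in control, 86.2, 83.4 and 100.1 in KO1 and 59.6, 65.7, 34.0 and 57.5 in KO2, a log2 fold change of 1.06 in KO1 and 0.33 in KO2 (difference -0.73 ± 0.21 SE, adjusted p = 0.0548). Spc25 was at 23.2 and 28.3 CPM in control, 33.0, 30.2 and 33.4 in KO1 and 57.1, 42.1, 47.6 and 46.9 in KO2, a log2 fold change of 0.32 in KO1 and 0.91 in KO2 (difference 0.59 ± 0.15 SE, adjusted p = 0.0400). For both genes the clones did not overlap (exact two-sided permutation p = 0.0286, the smallest that 3 against 4 libraries can give). The log2 ratio of Spc24 to Spc25 was 0.71 and 0.78 in control, 1.38 to 1.59 in KO1 and -0.48 to 0.64 in KO2. These 9 calls were not stable: without KO1 replicate 2 edgeR called 0 (8 lower and 1 higher at an unadjusted p under 0.05). Without KO1 replicate 3 it called 3, and without KO2 replicate 3 it called 15. Of all genes, 3.11%, 6.01% and 13.5% were called lower in those fits, in the same order, and 2.68%, 5.33% and 14% higher. The calls over all genes thus moved in the same order. For the unadjusted level no share of all genes is given here.

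**Figure D5:**
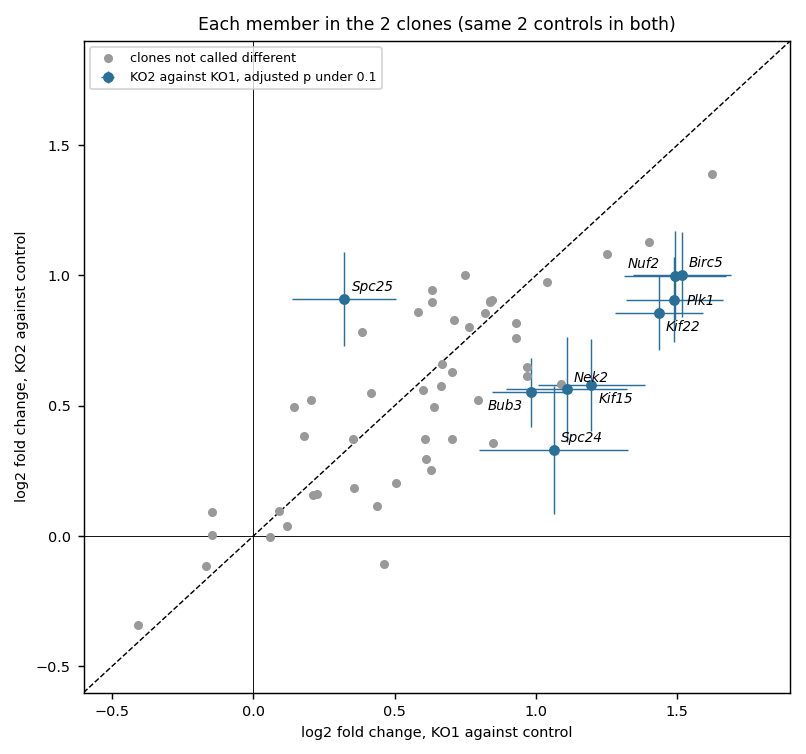
Log2 fold change against the same 2 controls in KO2 (vertical) and KO1 (horizontal) for the 58 members, with a dashed line of equal change. The 9 members called between the clones are blue with standard error bars, 8 of them below the line and Spc25 above it.

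Genes of the same machinery outside the 58 were counted in 7 lists. Of these 104 genes, all of them tested, 38 were called higher and 4 lower, with a median log2 fold change of 0.43, where 11.9% of all genes were called higher and 10.7% lower. In the lists of APC/C subunits and regulators 6 of 16 were higher and 1 lower, of other kinetochore and centromere proteins 12 of 32 were higher, of augmin and the gamma-tubulin complex, which nucleate spindle microtubules, 6 of 15, of condensin II 2 of 3, and of kinases and regulators of entry into mitosis 5 of 10 with 1 lower. Cohesin and its regulators had a median of -0.10, with 4 of 15 higher and 1 lower. Of the DREAM and MuvB complexes 3 of 13 were higher and 1 lower. Mybl2, the gene of B-Myb, had the largest change of the 7 lists, from 28.9 and 27.8 CPM in control to 89.8, 88.8 and 119 in KO1 and 115, 78.7, 81.5 and 89.4 in KO2 (1.74 ± 0.21, adjusted p = 0.00168). The other genes with the largest change in their lists were Haus5 of augmin at 1.64, Cenpm at 1.63, which spans 6.06 to 28.6 CPM over the KO libraries, Anapc15 at 1.20, Cdca5 (sororin, which protects cohesin) at 1.09, Lmnb1 (lamin B1) at 1.02 and Ncapg2 at 0.86. Lower in KO cells were Anapc16 at -0.70, Wapl, which releases cohesin from chromosomes, at -0.73, Ensa, an inhibitor of the phosphatase PP2A, at -0.81, and Tfdp2, an E2F partner, at -0.86. Of 40 DNA replication genes, which act before mitosis, 35 were called higher, with a median log2 fold change of 1.38. The difference between the lists was not tested.

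The chromatin pulldown of MaTAR25 (ChIRP-seq) gave lists of peaks, called on pooled replicates, so no replicate error can be given. In 4T1 cells with all probes, 31 of the 58 members (53.4%) were the nearest promoter to at least 1 peak, as were 59.8% of tested genes. Within 1000 bp of the start of any annotated transcript of a gene, 10 members (17.2%) had a peak, as did 13.5% of tested genes. Such a start can lie far inside a gene, so these are not all peaks at the main promoter. For Cenpe, the gene starts at chr3:135212537 and a peak of this kind lay at chr3:135259336-135260118. The 10 members were Bub1, Cenpe, Cenpf, Ckap5, Ect2, Foxm1, Kif15, Kif20b, Kif23 and Smc4. Of these 10, 4 were called higher in KO cells. With the odd probe pool 3 members had such a peak (5.17%, against 10.2% of tested genes) and with the even pool 7 (12.1%, with 1643 of the 14953 tested genes), and Foxm1 alone had one with both. In a second kind of mammary tumor cells, titled NDL and labelled MMTV-PyMT of FVB strain, 6 members had one (10.3%), as did 1942 of the 14953 tested genes. The highest-scoring peak nearest to a member lay at Bub1 (chr2:127802647-127803398), with a score of 604 and rank 467 of 76806 in the total list and rank 162 of 61311 in the odd list. With the even pool Bub1 was not among the 3 highest, which lay at Ckap5 (score 252.3, rank 1928 of 64607), Cks2 and Bub1b. The even list holds no peaks on chromosome 3, where Ccna2, Cks1b, Cenpe, Ect2 and Smc4 lie, and its counts carry that limit.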

How the data were processed

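Polyadenylated RNA of 9 libraries (2 control, 3 KO1 and 4 KO2) was analysed from the raw counts per gene that the authors deposited. Single-end reads had been mapped by STAR (GRCm38) and counted by HTSeq-count (GENCODE vM5). Whether counting used strand is not given in these sources. Lines that name no gene held 33.9 and 34.3% of the table's total in control and 34.8 to 37.0% in KO libraries and were left out. The KO2 replicate 2 table lists every gene 3 times with equal counts, and each gene was used once. Peak lists hold a HOMER peak score per region, which the authors computed over pooled ChIRP replicates against a Ppib pulldown, and only positions, scores and nearest genes were used.

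Genes were tested with edgeR 4.0.16 in R 4.3.3 (TMM, filterByExpr, glmQLFit and glmQLFTest), with Benjamini-Hochberg adjustment over all 15023 genes and a threshold of 0.1, the level the study uses. KO against control had 1 KO group (biological coefficient of variation 42.0%), and the clones were fitted as 3 groups (32.5%). Single genes were also tested by exact two-sided permutation of mean log2(CPM + 1). Alternatives were DESeq2 1.42.0, RLE size factors, no low-count filter, at least 10 counts in every library, an adjusted p of 0.05, the replicate number as a block, the mean of both clones, fits of only the groups compared, and leaving out each library. The script was tested on simulated data.

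The 58 members, the function classes and the other gene lists were chosen with earlier results of these data known. By rule, values in every library are given for 13 core members, for the members with the largest change and the largest p in each class, and for those called between the clones. Gene names and positions are from GENCODE vM21 on GRCm38 and promoters from RefSeq on GRCm38.p6. Exons of 19 members overlap another gene, 15 of them on the opposite strand, where reads cannot be told apart without strand. These 15 are Ccna2, Cdc25b, Cdc25c, Plk1, Nek2, Cdc20, Ube2c, Cdca8, Kif18a, Kif20a, Kif22, Kif4, Nusap1, Prc1 and Ncapg, not all of them flagged above. The 4 with an overlap on the same strand are Foxm1, Ckap5, Ncapd2 and Top2a. Figures and summaries were made in Python 3.11.15.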

Additional observations from a re-analysis of the deposited data

Results flagged for a closer look

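The 9 members called between the clones differed in KO2 minus KO1 on the log2 scale by -0.58 for Plk1, -0.51 for Birc5, -0.49 for Nuf2, -0.55 for Nek2, -0.43 for Bub3, -0.73 for Spc24, 0.59 for Spc25, -0.62 for Kif15 and -0.58 for Kif22, each from the test of the difference itself. Over all genes tested, 9.43% were called lower in KO2 than in KO1 and 10.2% higher, so such calls were not particular to the members. Libraries also stood apart from their group in 5 of the 34 genes examined. KO2 replicate 1 lay far above the rest of KO2 in Bub1b (220.0 CPM), Kif20a (214.6 CPM) and Ckap5 (303.4 CPM), and above all other KO libraries in Ckap5 and in Cdc20 (280.6 CPM). KO2 replicate 3 lay below the other KO libraries in Prc1 (215.8 CPM). These are 6 gaps past Dixon's 95% value in 68 groups of values. In separate groups chance gives about 1 in 20. Here each gene was examined in KO2 and again in all KO libraries, which include KO2, so that rate cannot be applied. The causes were not tested.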

How the results depend on the processing

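The median log2 fold change of the members was 0.64 to 0.75 under every alternative. Members called in KO cells numbered 30 and ranged from 2 to 35 when a library was left out, 2 without either control. For KO1 the count was 37 (11 to 39, lowest without control replicate 1, and 16 without control replicate 2, and 45 with only the groups compared, 1 of them lower) and for KO2 34 (10 to 40, lowest without control replicate 1, and 11 without control replicate 2). The 9 calls between the clones ranged from 0 without KO1 replicate 2 to 15 without KO2 replicate 3. In those fits 3.11% and 13.5% of all genes were called lower and 2.68% and 14% higher. Of the other mitosis genes 42 were called (1 to 44, lowest without control replicate 1, and 7 without control replicate 2), and 26 at an adjusted p of 0.05. The cause was not tested, beyond the smaller number of controls. MaTAR25 was at -2.97 to -2.41 on the log2 scale with a library left out, and its call was lost without control replicate 1 (-2.74, adjusted p = 0.260) and without control replicate 2 (-2.50, adjusted p = 0.300). At -2.63 it did not pass 0.05. It was not tested with at least 10 counts in every library, which removed it. Replicate numbers did not pair the libraries, since deviations of same-numbered libraries correlated at -0.149 to 0.043. With the number as a block, 20 members were called in KO cells, 4 between the clones and 23 of the other mitosis genes, and MaTAR25 was at -2.45 (adjusted p = 0.234). Cdca8, with a log2 fold change of about 0, was at 0.0918 with the block and -0.0997 to 0.0624 with a library left out, and Ect2 at -0.0946 to 0.1736. With either control left out, most of the single-gene results that had been called were no longer called. All genes called higher fell from 11.9% to 5.13% without the low-count filter and rose to 16.6% for the mean of both clones.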
